A study of Mus musculus with 6 samples.

Results

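The genes described here encode the proteins of the cytosolic ribosome in mouse 3T3-F442A cells. They were chosen by name: a row of the deposited expression table was taken when one of its gene names was a large subunit name (Rpl, with Rplp0 to Rplp2) or a small subunit name (Rps, with Rpsa), leaving out processed pseudogenes and the Rps6k kinases. This gave 66 of 31097 rows, 41 for the large and 25 for the small subunit. Of these rows, 52 carried the gene name alone, 13 also carried a small RNA or a numbered gene, and Rpl13a shared its row with Flt3l. The rule found 62 of 80 standard ribosomal protein genes. A further pair, Fau and Gnb2l1 (Rack1), is described beside the members, and the others were not analysed here.

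RNA sequencing compared 3 WT libraries of 3T3-F442A, a preadipocyte line used to study fat cell formation, with 3 SWELL1 KO libraries of the same parental line after CRISPR/Cas9 targeting of SWELL1 (Lrrc8a), which encodes an essential part of the anion channel that opens when cells swell. Both groups grew in RPMI with 10% FBS, and no other allele or agent is named for either. Whether 1 clone or several gave the KO libraries is not stated, and their sample names alone carry a mark, D3, of unstated meaning, so genotype, clone and whatever D3 denotes cannot be told apart. The p-values therefore measure the spread between these libraries. Values are FPKM, that is sequenced fragments per kilobase and per mapped total, a unit inferred from the authors' tools and the values themselves. The libraries held an estimated 17.1 to 20.8 M (WT) and 18.4 to 26 M (KO) mapped fragments, and the tested member with the least coverage, Rpl29, had about 984 fragments in its thinnest library. The labels call the cells adipocytes, yet only 5 of 11 adipocyte markers reached 1 FPKM in any library, their summed level was 143.5 to 203.0 FPKM in WT and 9.03 to 10.4 FPKM in KO, and Lep and Pck1 were listed at 0. Fabp4 held most of the WT adipocyte sum, at 188.2, 156.2 and 132.7 FPKM, and was at 2.45, 3.48 and 4.37 FPKM in KO. Lipe held most of the KO sum and did not pass (limma adjusted p = 0.211). The 9 preadipocyte and fibroblast markers with rows summed to 7682.5 to 8547.0 FPKM in WT and 7908.6 to 8072.7 FPKM in KO. Behind these similar sums the markers split by direction, all at a limma adjusted p under 0.05. Pdgfra, Col1a1, Col1a2, Dlk1 and Thy1 were lower in KO, and Pdgfrb, Col3a1, Vim and Fn1 were higher. Macrophage markers summed to 20 to 23.5 FPKM in WT and 20.1 to 30.6 FPKM in KO, nearly all from Cd14 and with Csf1r at 0, and myoblast markers (Myod1, Myog) were at 0. Endothelial markers summed to 0.104 to 0.236 FPKM in WT and 0.346 to 0.761 FPKM in KO, and epithelial markers to 0.0107 to 0.193 FPKM and 1.37 to 1.57 FPKM, with Epcam at 0. The part of these marker levels in the results was not tested.

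Each cytosolic ribosome holds 1 copy of nearly every ribosomal protein, joined to ribosomal RNA in a large subunit, which forms peptide bonds, and a small subunit, which reads the mRNA. Cells make the proteins in matched amounts and degrade the surplus, and several free ribosomal proteins signal to p53. Transcription of the genes typically starts at a C within a run of pyrimidines, which gives their mRNAs the 5' terminal oligopyrimidine (TOP) motif, through which mTORC1 and LARP1 control their translation and stability. Protein synthesis and ribosome content rise and fall with growth in most cell types, preadipocytes included.

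Sequences around the annotated starts are shown because the TOP motif lies there, for 7 members past the test that were picked after their values were seen. They run 5' to 3' from 30 bases before to 20 bases after a RefSeq start (build GRCm38.p6), with the letters CTTTC, searched on the gene's strand, in capitals. The lower members Rpl18 (chr7:45718041-45718090, + strand), Rpl28 (chr7:4792935-4792984, + strand) and Rplp2 (chr7:141447621-141447670, + strand) held these letters, as did Rps26 (chr10:128626487-128626536, - strand), which was higher. Rps3 (chr7:99483690-99483739, - strand), Rps25 (chr9:44407684-44407733, + strand) and the higher member Rpl10 (chrX:74270786-74270835, + strand) did not hold them in this window.
Rpl18: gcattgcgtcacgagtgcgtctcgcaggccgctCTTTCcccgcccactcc
Rpl28: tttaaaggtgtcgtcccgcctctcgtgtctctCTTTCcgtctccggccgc
Rplp2: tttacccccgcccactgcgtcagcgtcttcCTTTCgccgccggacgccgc
Rps26: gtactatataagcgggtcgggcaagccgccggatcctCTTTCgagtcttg
Rps3: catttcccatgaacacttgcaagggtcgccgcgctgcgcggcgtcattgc
Rps25: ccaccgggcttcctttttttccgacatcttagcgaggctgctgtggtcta
Rpl10: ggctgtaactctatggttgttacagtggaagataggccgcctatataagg

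A RefSeq start was matched for 49 of the 63 tested members. Among these, 16 (32.7%) held CTTTC in the 50-base window on the gene's strand, against 8% of 27025 genes with an entry. On the opposite strand the shares were 10.2% and 6.96%. The letters stood in 12 of 29 large subunit genes and 4 of 20 small subunit genes, and in 11 of 30 members that were lower in KO, 1 of 3 that were higher and 4 of 16 that did not pass the test. CCGGAAG, the core letters bound by ETS family factors, stood on either strand in 11 of 49 members (22.4%) and in 3.99% of all genes. A match describes the letters in the window and does not show a site in use. CTTTC was sought anywhere in the window, so it does not stand for the TOP motif, which lies at the start of transcription. A window without CTTTC may still hold a run of pyrimidines, such as cttcctttttttcc in Rps25. Presence of the TOP motif itself was not tested.

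On the deposited scale ribosomal protein mRNAs were mostly lower in the KO libraries, by modest amounts and in both subunits. Of the 63 members tested (mean of at least 0.5 FPKM), 41 fell (65.1%), 3 rose (4.76%) and 19 did not pass, at a limma adjusted p under 0.05 over all 10515 tested rows. Over all tested rows 36.7% fell and 28.5% rose (65.2% in either direction), so the share of members that fell was above the background and the share that rose below it. The median log2 fold change (KO minus WT) was -0.28 over members, with quartiles at -0.42 and -0.13, and -0.07 over all rows. No member changed 2-fold in either direction: the range was -0.85 to 0.32. All 3 KO libraries stood below all 3 WT libraries in 46 members and the groups did not overlap in 50, where 40.3% and 71.8% of all tested rows did so.

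The scale of the libraries bears on these counts. A single numbered row, AC166252.2, took up a large share of summed FPKM in KO: 23.7% in replicate 1, 16.7% in replicate 2 and 17.4% in replicate 3. In WT it held 2.1% of summed FPKM in replicate 2 and had a value of 0 in the other libraries. FPKM is scaled by length, so these are not shares of sequenced fragments, which were not estimated for this row. Members made up 25.6 ± 0.306% of the FPKM sum in WT and 18.7 ± 0.458% in KO (SD, n = 3), and 25.7 ± 0.208% and 23.2 ± 0.586% of the sum without that row. Under median-ratio scaling 32 of 63 members fell and 5 rose, with 31.8% of all rows falling and 33.2% rising. Under quantile normalization 25 of 63 fell, 6 rose and 32 did not pass, with 32.1% of all rows falling and 32.6% rising. Of called members, 3 in 44 were higher on the deposited scale and 6 in 31 after quantile normalization. The median over members was -0.19 and -0.12 on these scales, beside 0.01 and -0.00 over all rows. Fewer cells of a type and less RNA per cell cannot be told apart in such bulk libraries.

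**Figure D1:**
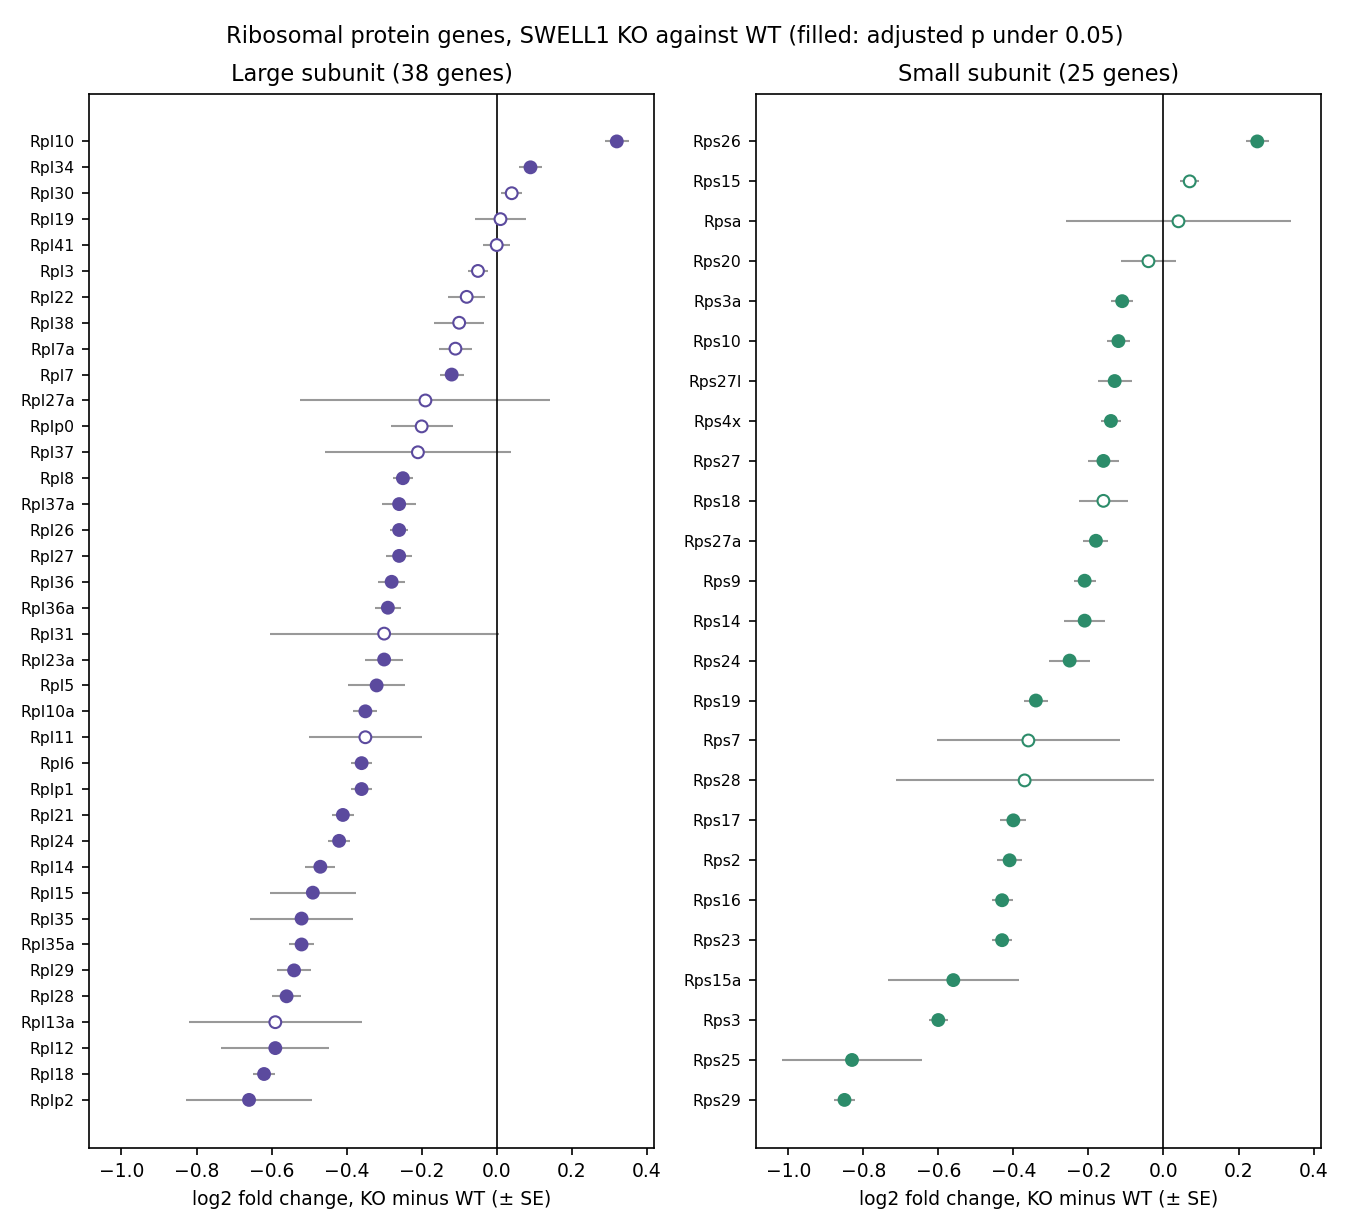
Log2 fold change (KO minus WT, x axis) of each of the 63 tested ribosomal protein genes, large subunit left and small subunit right, with bars of 1 SE from limma; filled points have an adjusted p under 0.05. Most points lie between -0.6 and 0, with Rps29 and Rps25 lowest and Rpl10 and Rps26 highest.

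On the deposited scale the fall was spread over both subunits. Of 38 tested large subunit genes 23 fell (60.5%), 2 rose and 13 did not pass, with a median log2 fold change of -0.30. Of 25 small subunit genes 18 fell (72%), 1 rose and 6 did not pass, with a median of -0.21. Over all tested rows 36.7% fell and 28.5% rose, with a median of -0.07. Under median-ratio scaling 22 of 38 large and 10 of 25 small subunit genes fell, beside 31.8% of all rows. Under quantile normalization 15 of 38 large and 10 of 25 small subunit genes fell, beside 32.1% of all rows. On both of these scales 13 of the 25 small subunit genes did not pass. The summed level of large subunit rows went from 72687.0 ± 1226.8 FPKM in WT to 60424.2 ± 1922.2 FPKM in KO, 16.9% lower, and that of small subunit rows from 56002.5 ± 1873.6 to 46229.1 ± 865.8 FPKM, 17.5% lower (SD, n = 3). The ratio of the sums, large over small, was 1.32, 1.32 and 1.25 for WT and 1.29, 1.33 and 1.3 for KO, so the groups overlapped. The gap between the medians of the subunits was 0.00 under quantile normalization. Per library, the median log2 difference of large subunit members from their WT means was -0.300, -0.266 and -0.350 in KO replicates 1, 2 and 3, and that of small subunit members -0.206, -0.195 and -0.244. Both subunits were lowest in KO replicate 3, and no KO library carried the fall alone.

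**Figure D2:**
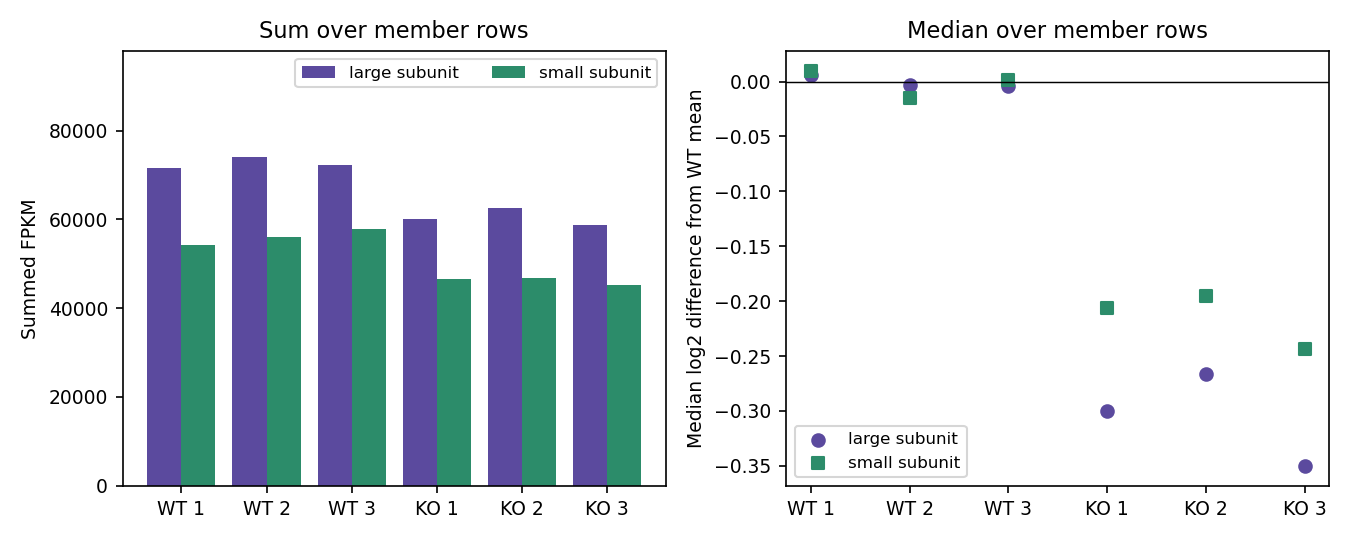
Left, summed FPKM of the large (purple) and small (green) subunit rows in each library; right, median log2 difference of their tested members from the WT mean of each gene. The WT sums of the large subunit lie between 71688.2 and 74056.3 FPKM and the KO sums between 58646.1 and 62463.8 FPKM.

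Among small subunit genes the largest fall was in Rps29, which encodes a small zinc-binding protein of the head of the subunit (chromosome 12, 69157722 to 69159186, - strand, GRCm38). Its level was 3886, 3854 and 3836 FPKM in WT and 2171, 2104 and 2160 FPKM in KO. Libraries of a group lay within 1.03 times of each other, and the groups were far apart (44.4% lower, log2 fold change -0.85, SE 0.03, limma adjusted p = 5.96e-06). Rps29 was at -0.75 under median-ratio scaling and -0.85 under quantile normalization. Rps3, whose protein lines the mRNA entry channel and also acts as a DNA repair endonuclease in other settings (chromosome 7, 99477896 to 99483738, - strand), was at 1270, 1285 and 1267 FPKM in WT and 849, 841 and 835 FPKM in KO. Again no library of one group came near the other (log2 fold change -0.60, SE 0.03, limma adjusted p = 1.29e-05).

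Rps25, a head protein that viral internal ribosome entry sites depend on (chromosome 9, 44407139 to 44410427, + strand), fell by 0.83 on the log2 scale, but its WT libraries disagreed. They were at 2145, 1357 and 1362 FPKM, against 934, 902 and 843 FPKM in KO (SE 0.19, limma adjusted p = 0.00953). Without the high WT replicate 1 the groups would still not overlap. Rps15a, a protein of the subunit body (chromosome 7, 118104372 to 118116188, - strand), was even in WT at 3427, 3418 and 3528 FPKM and uneven in KO at 1802, 2955 and 2443 FPKM. Its call (log2 fold change -0.56, SE 0.17, limma adjusted p = 0.0325) was lost when WT replicate 1, 2 or 3 or KO replicate 3 was left out (adjusted p = 0.0672 to 0.0845) and under median-ratio scaling (adjusted p = 0.0611).

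The small subunit genes of highest level were Rps24, Rps28, Rps29 and Rps15a. Rps24, a protein of the body of the subunit, was at 4814, 5429 and 4825 FPKM in WT and 4215, 4121 and 4275 FPKM in KO (log2 fold change -0.25, SE 0.05, limma adjusted p = 0.0077). Its groups did not overlap, but the call was lost with no filter on low values (adjusted p = 0.0572). Rps27a, which is made as a fusion of ubiquitin with a ribosomal protein, fell from 2367 ± 48.8 to 2089 ± 56.3 FPKM (-0.18, limma adjusted p = 0.00424), and that call was lost under both other scalings. Rpsa, which also serves as a laminin receptor precursor, was at 1345, 1354 and 1922 FPKM in WT and 2256, 1059 and 1594 FPKM in KO. Its groups overlapped entirely (log2 fold change 0.04, SE 0.30, limma adjusted p = 0.912).

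In the large subunit, Rpl18 (chromosome 7, 45715457 to 45720836, + strand), a protein of the solvent side, showed the largest fall among genes with even libraries. It was at 1560, 1513 and 1526 FPKM in WT and 991, 1014 and 985 FPKM in KO (log2 fold change -0.62, SE 0.03, limma adjusted p = 1.69e-05). Rpl28 (chromosome 7, 4792874 to 4795066, + strand), a protein that budding yeast lacks, was at 2127, 1998 and 2093 FPKM in WT and 1433, 1431 and 1359 FPKM in KO (-0.56, SE 0.04, limma adjusted p = 7.31e-05). In both genes every KO library was under every WT library. Rpl35a, a gene mutated in some patients with Diamond-Blackfan anaemia, was at 866, 874 and 888 FPKM in WT and 626, 590 and 613 FPKM in KO (-0.52, SE 0.03, limma adjusted p = 5.1e-05). Rpl29, the tested member of lowest level, was at 140.3, 134.4 and 142.9 FPKM in WT and 95.2, 99.9 and 91.9 FPKM in KO (-0.54, SE 0.04, limma adjusted p = 0.000145). Their groups were likewise separate.

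Further large subunit members past the test had a single library out of step with its group. Rpl12, a protein of the stalk base, was at 2624, 2562 and 2641 FPKM in WT and 1984, 1922 and 1373 FPKM in KO (-0.59, limma adjusted p = 0.0128). Rpl15, a protein packed against the large ribosomal RNA, was at 2230, 2264 and 2268 FPKM in WT and 1703, 1803 and 1334 FPKM in KO (-0.49, limma adjusted p = 0.01). In both, KO replicate 3 was the low library, though all KO values were below WT. Rpl35, at the rim of the exit tunnel where nascent chains emerge, was at 1005, 1076 and 1439 FPKM in WT and 841, 800 and 782 FPKM in KO (-0.52, limma adjusted p = 0.0168), with WT replicate 3 high. Its call was lost without KO replicate 3 (adjusted p = 0.0521).

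The large subunit genes of highest level were Rplp1, Rpl23a, Rpl19 and Rpl10. Rpl23a, a docking site for the signal recognition particle, was at 5004, 4492 and 4550 FPKM in WT and 3790, 3886 and 3717 FPKM in KO (-0.30, limma adjusted p = 0.0026), with no overlap. Rpl19, which forms a bridge between the subunits, was at 2716, 3043 and 2830 FPKM in WT and 2772, 2751 and 3134 FPKM in KO. Its groups overlapped (log2 fold change 0.01, SE 0.07, limma adjusted p = 0.902). Across the 63 tested genes the Spearman correlation of log2 fold change with mean level was 0.139 and with transcript length -0.0434, a description over genes that share the same libraries.

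Rplp0, Rplp1 and Rplp2 make up the ribosomal stalk, which recruits elongation factors. Rplp1 was at 5816, 5734 and 5582 FPKM in WT and 4508, 4424 and 4452 FPKM in KO (-0.36, SE 0.03, limma adjusted p = 0.000127). Rplp2, its partner in the stalk dimers, was at 2498, 1728 and 2309 FPKM in WT and 1285, 1231 and 1611 FPKM in KO (-0.66, SE 0.17, limma adjusted p = 0.0158). Both genes had separate groups, but the Rplp2 call was lost without KO replicate 1 or 2 or WT replicate 3 (adjusted p = 0.0503 to 0.0528) and under quantile normalization (adjusted p = 0.0753). Rplp0, which anchors the dimers, was at 2645, 3188 and 2610 FPKM in WT and 2487, 2452 and 2389 FPKM in KO (-0.20, limma adjusted p = 0.0783). Its groups did not overlap, and it passed without the high WT replicate 2 (adjusted p = 0.0453).

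Rpl5 and Rpl11 join 5S ribosomal RNA in a particle that can bind the p53 inhibitor MDM2. Rpl5 was at 1973, 2163 and 2297 FPKM in WT and 1747, 1821 and 1592 FPKM in KO (-0.32, SE 0.08, limma adjusted p = 0.0112), a call lost under quantile normalization (-0.16, adjusted p = 0.0847). Rpl11 was at 1393, 1910 and 1356 FPKM in WT and 1112, 1352 and 1167 FPKM in KO (-0.35, SE 0.15, limma adjusted p = 0.0902). The groups of both were separate, those of Rpl11 narrowly, between 1352 and 1356 FPKM.

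Only 3 members rose on the deposited scale. Rpl10 (chromosome X, 74270812 to 74273135, + strand), a late-joining protein near the catalytic centre, was at 2463, 2352 and 2382 FPKM in WT and 3040, 3014 and 2934 FPKM in KO (24.9% higher, log2 fold change 0.32, SE 0.03, limma adjusted p = 0.000291). Rps26 (chromosome 10, 128624534 to 128626747, - strand), a protein of the mRNA exit channel, was at 2464, 2403 and 2419 FPKM in WT and 2963, 2867 and 2821 FPKM in KO (18.7% higher, 0.25, SE 0.03, limma adjusted p = 0.000766). Every KO library of these genes was above every WT library, and both were higher under either other scaling, at 0.41 and 0.36 for Rpl10 and 0.34 and 0.26 for Rps26. Rpl34, a solvent-side protein, was at 730.4, 730.0 and 702.4 FPKM in WT and 777.4, 768.0 and 760.6 FPKM in KO. Its rise of 6.62% (0.09, SE 0.03, limma adjusted p = 0.0348) was lost when any single library was left out (adjusted p = 0.0516 to 0.112), with no filter (adjusted p = 0.0928) and under a replicate block (adjusted p = 0.0661), and held under both other scalings, at 0.19 and 0.30. Rpl30 and Rps15, chosen after their values were seen, did not pass (0.04 and 0.07, limma adjusted p = 0.255 and 0.0599) and were higher under both other scalings.

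**Figure D3:**
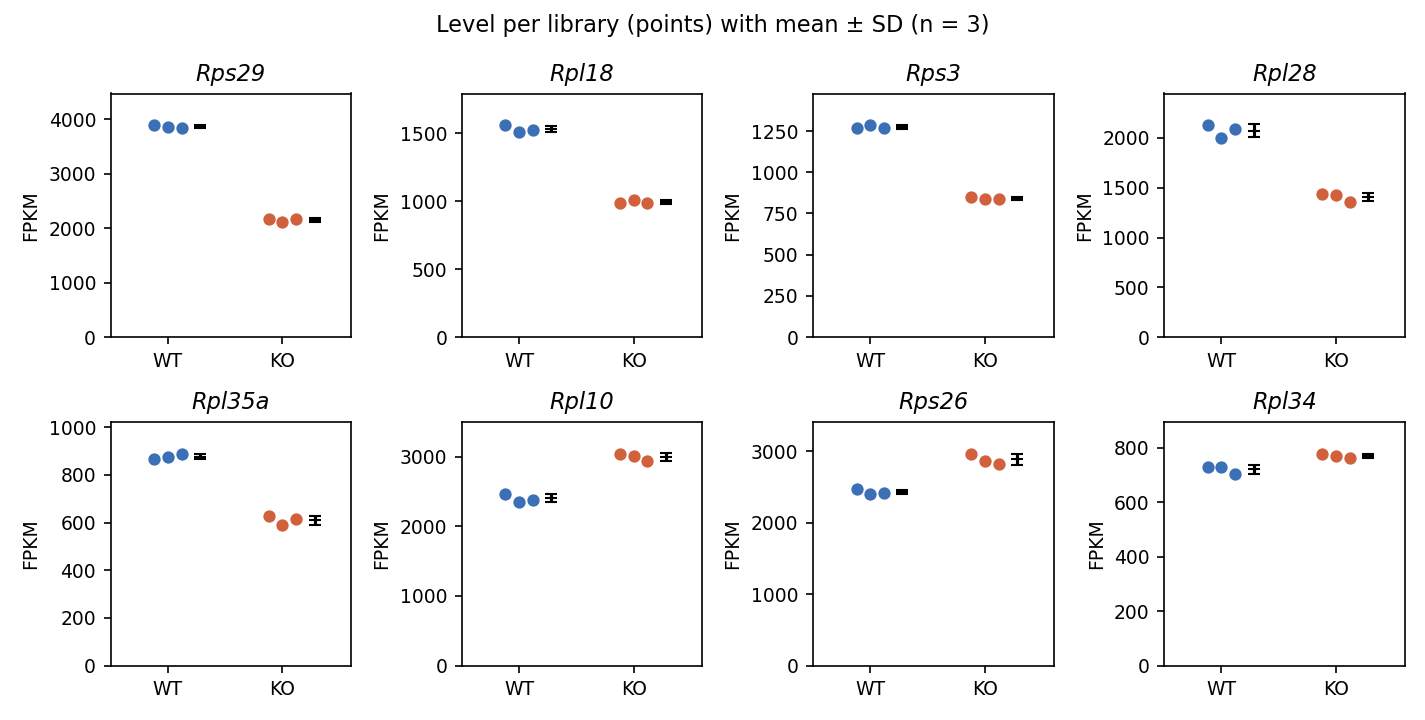
FPKM per library (points; WT blue, KO orange) with mean ± SD (black, n = 3) for 5 members that fell and the 3 that rose, each on its own axis from 0. Libraries of a group lie close together, and the groups are separate in all 8 genes. The group means differ by 6.62% of the WT mean in Rpl34 and by 44.4% in Rps29.

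Tissue-restricted paralogs were listed at or near 0. Rpl10l and Rpl39l, which stand in for X-linked parents in male germ cells, were listed at 0 in all 6 libraries, and Rpl3l, the heart and skeletal muscle form of Rpl3, was at 0 except for 0.0847 FPKM in KO replicate 2. These 3 rows were not tested. Rps27l, a p53-responsive relative of Rps27, was at 181.3, 185.8 and 200.3 FPKM in WT and 168.9, 173.7 and 173.9 FPKM in KO (-0.13, limma adjusted p = 0.0427), and Rps27 fell from 1811 ± 61.5 to 1618 ± 58.2 FPKM (-0.16, limma adjusted p = 0.0155). Their groups did not overlap, yet under quantile normalization Rps27l was at 0.11 and Rps27 at 0.06, neither passing, and neither passed under median-ratio scaling. The Rps27 call was lost without WT replicate 1 (adjusted p = 0.0545), and that of Rps27l without WT replicate 2 or 3 or any KO replicate (adjusted p = 0.0714 to 0.113). The parent Rpl3, chosen after its values were seen, was at 1443 ± 10.3 and 1397 ± 17.1 FPKM (-0.05, limma adjusted p = 0.164), and turned to 0.05 under median-ratio scaling (adjusted p = 0.19) and to 0.13, a call as higher, under quantile normalization (adjusted p = 0.0177).

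Of 7 listed ribosome components whose names the rule does not match, 5 had rows, and 4 of them fell. Fau, a ubiquitin-like fusion that yields a small subunit protein, fell from 2075.0 ± 42.7 to 1357 ± 28.5 FPKM (1.53-fold, limma adjusted p = 2.44e-05). Rpl22l1, a paralog that can replace Rpl22, fell from 482.9 ± 25 to 283.1 ± 9.13 FPKM (1.71-fold, limma adjusted p = 5.27e-05), while Rpl22 itself was at 1089 ± 15.9 and 1034 ± 63 FPKM (-0.08, limma adjusted p = 0.22; 0.02 and 0.11 under the other scalings, not called). Gnb2l1, the signalling scaffold RACK1 on the small subunit, fell from 1885 ± 43.1 to 1513 ± 21.9 FPKM, and Rpl36al fell from 309.9 ± 5.59 to 255.3 ± 2.11 FPKM, a call that was lost under quantile normalization (adjusted p = 0.0514). Rpl7l1, a relative of Rpl7, rose from 22.3 ± 4.04 to 30.2 ± 2.2 FPKM (limma adjusted p = 0.0334). Rpl7 itself fell (-0.12, limma adjusted p = 0.017), a call lost under both other scalings. Rpl22, Rpl7, Gnb2l1, Rpl36al and Rpl7l1 were singled out after their values were seen.

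A subset of members varied between libraries of the same group far more than the rest. The median member had its highest library at 1.04 times the lowest in WT and 1.06 times in KO. In 14 of 63 (22.2%; 9 large, 5 small) the highest library was at least 25% above the lowest in a group, a limit chosen after the values were seen, and the same was so in 22 of 76 other rows of at least 500 FPKM (28.9%). Rps28 was at 2697, 4558 and 5937 FPKM in WT and 2802, 4504 and 2664 FPKM in KO (-0.37, SE 0.34, limma adjusted p = 0.377), the widest SE in the set. Rpl13a, which shares its row with Flt3l, was at 2475.0, 4332 and 2518 FPKM in WT and 2014, 1812 and 2163 FPKM in KO (-0.59, SE 0.23, limma adjusted p = 0.0649). Rpl27a was at 1538, 1676 and 1711 FPKM in WT and 1096, 2487 and 1083 FPKM in KO (-0.19, SE 0.33, limma adjusted p = 0.633). The library out of step differed from gene to gene: WT replicate 2 was high in Rpl13a, WT replicate 3 in Rps28 and KO replicate 2 in Rpl27a. Of these 14 members 6 fell and none rose, with a median of -0.43, and of the other 49, 35 fell and 3 rose, with a median of -0.25. Without the 14, the large subunit median was -0.26 and its sum 0.863 times that of WT.

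**Figure D4:**
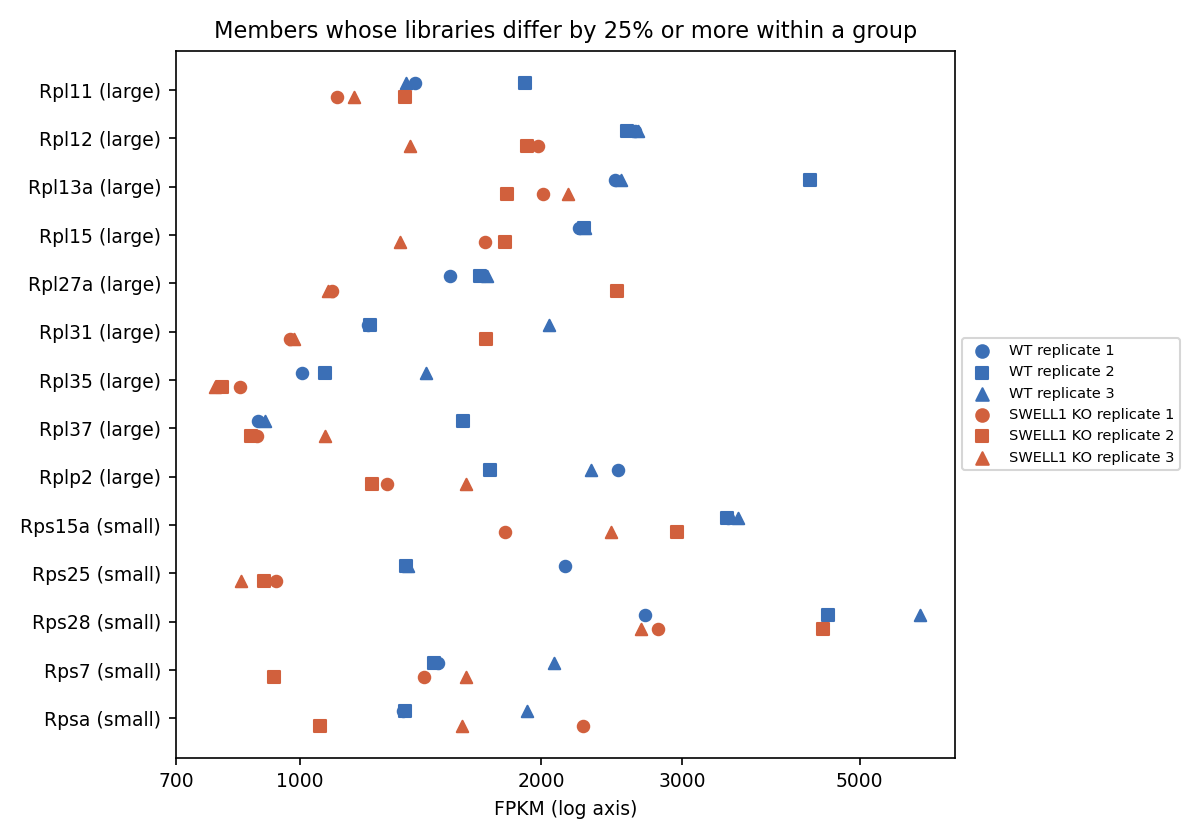
FPKM (log axis) in each library for the 14 members in which libraries of a group differ by 25% or more; blue is WT, orange is KO, and marker shapes give the replicate. The library that stands apart is not the same in all genes, for example WT replicate 2 in Rpl13a and KO replicate 2 in Rpl27a.

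Members were also grouped by role, and each count stands beside the 36.7% of all tested rows that fell and the 28.5% that rose. Of 20 genes mutated in human Diamond-Blackfan anaemia, a failure of red cell production, 14 fell and 1 rose (Rps26), with a median of -0.34, and 11 and 8 fell under median-ratio scaling and quantile normalization. Of 9 genes of the exit tunnel rim 6 had rows, and 3 fell (Rpl23a, Rpl26 and Rpl35), with a median of -0.28, a count of 2 under quantile normalization. Of 9 genes of the decoding site and mRNA channel 8 had rows, and 6 fell (Rps2, Rps3, Rps23, Rps9, Rps14 and Rps16), with a median of -0.31. The remaining channel genes, Rps15 and Rps18, were at 2036 ± 23.9 and 2133 ± 12.9 FPKM and at 1260.2 ± 23.1 and 1129 ± 98 FPKM in WT and KO. Medians of all 3 groups stayed under 0 with both other scalings, at -0.25 and -0.17, -0.19 and -0.06, and -0.22 and -0.21. These lists overlap with each other and with the set as a whole.

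Other mRNAs that carry the TOP motif were mostly higher. Of 13 tested translation factors and related genes on that list, 8 rose and 3 fell, with a median log2 fold change of 0.28, where 28.5% of all rows rose and 36.7% fell. Under the other scalings 9 and 10 rose and none fell, beside 33.2% and 32.6% of all rows that rose. Eef1a1, the main elongation factor that delivers tRNA, was at 7280.4 ± 122.2 FPKM in WT and 6666 ± 116.5 FPKM in KO (-0.13, limma adjusted p = 0.00978). It did not pass under median-ratio scaling (-0.03, limma adjusted p = 0.401). Nor did it pass under quantile normalization, where its difference was larger (-1.40, limma adjusted p = 0.11). Tpt1, which encodes the growth-related protein TCTP, rose from 2776 ± 57.1 to 3491 ± 91.8 FPKM (1.26-fold, limma adjusted p = 0.000313), and Npm1, the nucleolar chaperone nucleophosmin, rose from 1115 ± 55.4 to 1449 ± 25.3 FPKM (1.3-fold, limma adjusted p = 0.000542). Eef1a1, Tpt1 and Npm1 were picked after their values were seen. The sole gene of the list past 1.5-fold was Eif3f, a subunit of initiation factor eIF3, which fell from 222.9 ± 72.7 to 126.2 ± 25.3 FPKM (1.77-fold, limma adjusted p = 0.0342) and did not pass under either scaling.

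Of 14 genes that control TOP mRNAs 5 fell (35.7%) and 4 rose (28.6%), close to the 36.7% and 28.5% of all tested rows. Tial1, an RNA-binding protein that holds TOP mRNAs back in starved cells, fell 2.24-fold from 34.8 ± 1.6 to 15.6 ± 0.944 FPKM, and Rheb, the GTPase that activates mTORC1, fell 1.86-fold from 72.2 ± 3.06 to 38.8 ± 6.95 FPKM. Eif4ebp1, the translation repressor 4E-BP1, fell 1.61-fold, and Cnbp, which binds TOP sequences, fell 1.57-fold. Tsc2, an inhibitor of Rheb, rose 1.66-fold from 6.67 ± 1.02 to 11.1 ± 1.78 FPKM, and Rps6kb1, the S6 kinase, rose 1.68-fold. All 6 had a limma adjusted p of 0.0334 or less. Rps6kb1 was uneven in KO, at 20.9, 13.2 and 11.7 FPKM, against 9.89, 8.67 and 8.63 FPKM in WT. Under 1.5-fold, Larp1 fell (-0.51, limma adjusted p = 0.00304) and Mtor rose (0.24, limma adjusted p = 0.0401). Both calls held under the other scalings. Larp1 and Mtor were singled out after their values were seen.

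Genes for making ribosomal RNA and assembling subunits did not share a direction on the deposited scale. Counts for these lists stand beside the 36.7% of all tested rows that fell and the 28.5% that rose. Of 11 tested RNA polymerase I genes and factors 4 fell (36.4%) and 4 rose (36.4%). Polr1b, the second largest subunit of the enzyme, rose 2.52-fold from 2.26 ± 0.209 to 5.7 ± 0.22 FPKM (limma adjusted p = 6.37e-05), and Ubtf, which activates the ribosomal RNA promoter, rose 2.3-fold from 13.7 ± 0.821 to 31.6 ± 3.45 FPKM (limma adjusted p = 0.000121). Cd3eap, another subunit of the enzyme, was listed at 0, 0 and 3.26 FPKM for WT, and KO libraries held 4.43, 4.79 and 5.14 FPKM (limma adjusted p = 0.0398). Of 25 genes of the snoRNA particles and ribosomal RNA processing 10 rose (40%) and 4 fell (16%), with Imp4 2.3-fold, Utp20 1.77-fold, Ddx21 1.61-fold and Nop56 1.55-fold higher and Utp15 1.59-fold lower. Of 28 large subunit assembly factors 9 rose (32.1%) and 7 fell (25%): Las1l, Wdr12 and Mdn1 rose 1.82-fold each and Bop1 1.55-fold, while Eif6, which keeps the subunits apart, fell 1.75-fold and Sbds, which removes Eif6, fell 1.7-fold. Of 17 small subunit assembly factors 7 fell (41.2%) and 3 rose (17.6%), with Tsr1 2.09-fold, the methyltransferase gene Emg1 2.03-fold and Ngdn 1.52-fold lower. The medians were 0.12, 0.11, 0.07 and -0.10 in that order, and no median changed sign with scaling. Under median-ratio scaling 6, 14, 11 and 3 genes of these lists rose and 3, 3, 4 and 7 fell. Under quantile normalization 6, 14, 12 and 3 rose and 4, 2, 4 and 7 fell. Of all tested rows 33.2% and 32.6% rose on these scales, and 31.8% and 32.1% fell. Thus more genes rose than fell in the first 3 lists, and fewer in small subunit assembly. Libraries of Tsr1 and Wdr12 were uneven. Tsr1 was at 26.2, 14.7 and 31 FPKM in WT and 13.3, 9.46 and 11.6 FPKM in KO (SE 0.29, limma adjusted p = 0.026). Wdr12 was at 14.1, 10.5 and 15.9 FPKM in WT and 26.1, 30.9 and 16.8 FPKM in KO (SE 0.26, limma adjusted p = 0.0333).

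**Figure D5:**
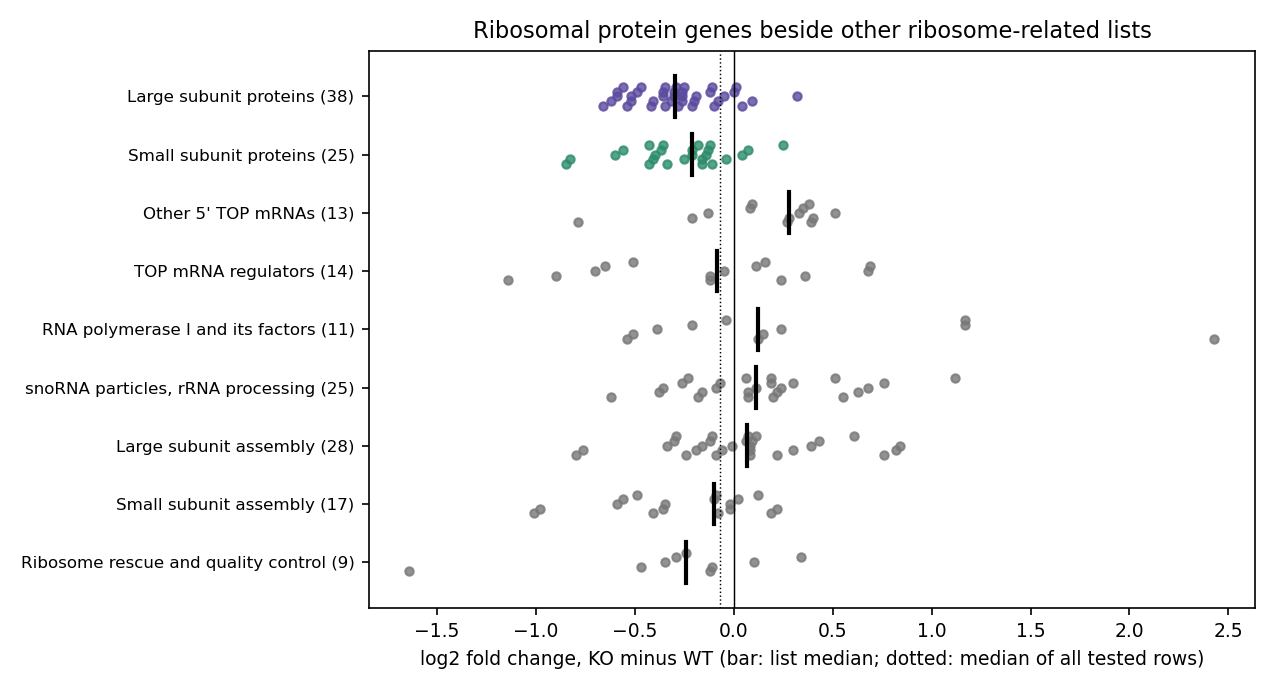
Log2 fold change (KO minus WT, x axis) of tested genes in the large and small ribosomal subunits and in 7 related lists, with a black bar at each list's median and a dotted line at the median of all tested rows (-0.07). The subunit medians lie at -0.30 and -0.21 and that of the other TOP mRNAs at 0.28.

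Mitochondrial ribosomal proteins, which serve a separate ribosome, fell in 25 and rose in 7 of 70 tested rows, a share of 35.7% lower beside 65.1% for the cytosolic set and 36.7% for all rows. Their median was -0.15. Of 76 other rows of at least 500 FPKM, 35 fell and 23 rose, with a median of -0.13 and 46.1% lower. The difference between these sets and the cytosolic members was not tested.

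Processed pseudogenes share sequence with their parent genes, so reads can be split between them, and the table held rows for them. Of 213 such rows 90 were tested, and 54 fell (60%) and 7 rose (7.78%), against 36.7% and 28.5% of all tested rows. Pseudogenes of 42 members had rows, and in 8 members they held at least 10% of the summed level of gene and pseudogenes in WT, most of all 72.7% for Rps2, 62.8% for Rpl35a and 57.8% for Rpl34. In 28 of 31 members with at least 5 FPKM of pseudogenes, gene and pseudogenes differed from WT in the same direction. Rpl10 was 1.25 times its WT level and its pseudogenes 1.21 times, and Rps26 was at 1.19 and 1.21 times. Adding the pseudogene rows put Rps2 at 0.728 times its WT level, Rpl35a at 0.693 times and Rpl34 at 1.06 times, against 0.754, 0.696 and 1.07 for the genes alone. The other members at 10% or more were Rpl3 (30.8%), Rpl21 (19.3%), Rpl15 (13.8%), Rpl10a (12.4%) and Rpl10 (10.5%). Rpl3 was at 0.968 times its WT level, its pseudogenes at 1.05 times and their sum at 0.994 times. The rows of all 8 members are uncertain as levels of the gene itself.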

How the data were processed

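The authors deposited a single table with 1 value per row and library. Per the submitters' processing notes, reads were handled with TopHat and Cufflinks 2.02 on GRCm38. Settings, annotation release and strandedness were not given in the sources used here. Overlapping antisense genes were not told apart. No label names the unit. The deposited values are FPKM by inference from Cufflinks and from the values, which are not whole and step with gene length. Depth was estimated from the lowest steps of 1240 single-transcript genes of at least 2500 bases. Rows averaging 0.5 FPKM or more were log2-transformed after adding 0.5 and tested in R 4.3.3 by limma 3.58.1 (mean-variance trend, two-sided, Benjamini-Hochberg over 10515 rows, threshold 0.05). Folds on that scale understate changes of low genes. Python 3.11.15, pandas 2.3.3, numpy 2.4.6 and matplotlib 3.10.9 were used for summaries and drawing.

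On simulated data with 200 of 10515 rows changed in SWELL1 KO against WT, 74.7% of 1.25-fold, 95.2% of 1.5-fold and 100% of 2-fold changes were recovered, and 5.32% of calls were false. The simulated noise followed the mean-variance trend in every row, with no uneven rows or libraries. Far fewer rows changed there than the 65.2% called in the real data. These rates therefore need not carry over to the real libraries. Gene positions are from GENCODE on GRCm38, and start sequences from RefSeq on GRCm38.p6. The members and lists were chosen with earlier results of these data known. Named members were the 8 largest increases (3 passed) and 12 largest decreases past the threshold, the 4 genes of highest level in each subunit, rows with a library at 0, paralogs with their parents, the stalk and 5S particle genes, Rpsa and Rps27a. Of the other lists, genes past 1.5-fold were named. Alternatives were other pseudocounts (0.1 and 1), filters, scalings, a robust variance prior, a replicate block and leaving out each library. Chosen after seeing the data were the split by within-group ratio, the gap between subunit medians under each setting and the pseudogene sums.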

Additional observations from a re-analysis of the deposited data

How the results depend on the processing

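Both subunit medians stayed below 0 in every setting tried. The count of members that fell was lowest under quantile normalization, while calls over all rows moved most with the filter (5120 at 5 FPKM, 7595 with none, 6860 as reported). Of the 41 members that fell, 32 also fell under median-ratio scaling, 24 under quantile normalization and 32 with no filter. Quantile normalization gave 25 lower and 6 higher members (large 15 and 4, small 10 and 2), subunit medians of -0.12 and -0.12 beside -0.00 over all rows, a gap between subunits of 0.00 and a large subunit sum of 0.874 times WT. Median-ratio scaling gave 5 higher members, 10 lower and 2 higher small subunit members, medians of -0.20, -0.12 and, over all rows, 0.01, and sums of 0.888 (large) and 0.882 (small). With no filter, 1 large subunit gene rose, 10 small subunit genes fell and the median of all rows was 0.01. A filter of 5 FPKM gave 2 higher small subunit genes and a median of all rows of -0.11, a robust prior 2 higher small subunit genes, and a pseudocount of 1 a median of all rows of -0.07. Without members of uneven libraries the large subunit median was -0.26 and its sum 0.863. Quantile normalization moved most members of highest level down. In the large subunit Rplp1 went from -0.36 to -0.65, Rpl23a from -0.30 to -0.51 and Rpl19 from 0.01 to -0.02. Rpl10 moved up, from 0.32 to 0.36. In the small subunit Rps24 went from -0.25 to -0.41, Rps28 from -0.37 to -0.60 and Rps15a from -0.56 to -0.65. Rps29 stayed at -0.85.

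Leaving out 1 library gave 34 to 43 lower and 2 higher members, 21 to 26 lower and 1 higher in the large subunit, 13 to 18 lower and 1 higher in the small subunit, medians of -0.33 to -0.27 (large), -0.27 to -0.19 (small) and -0.08 to -0.06 (all rows), a gap of -0.11 to -0.04, sums of 0.817 to 0.844 and 0.812 to 0.84, and 6303 to 6512 calls over all rows. Among named members, direction reversed, with no call after the change, for Rpl19 under quantile normalization (-0.02) and without KO replicate 3 (-0.05) or WT replicate 1 (-0.03), for Rps27 (0.06) and Rps27l (0.11) under quantile normalization, and for Rpsa without KO replicate 1 (-0.22), WT replicate 1 (-0.05) or WT replicate 2 (-0.04), where leaving out 1 library gave -0.22 to 0.32. Under quantile normalization Rpl7 (0.10), Rps10 (0.01), Rps3a (0.07) and Rps9 (0.03) also reversed without a call, and Rpl3, not called on the deposited scale, reversed to a call as higher (0.13). Uncalled before and after, Rpl22 (0.11), Rpl38 (0.07), Rpl7a (0.12), Rps18 (0.08) and Rps20 (0.12) reversed there too, and Rpl22 (0.02), Rpl3 (0.05) and Rps20 (0.05) under median-ratio scaling; Rpl41, at 0.00 as deposited, was at -0.01 (quantile) and 0.10 (median-ratio). The cause of these shifts was not tested.

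The labels number replicates 1 to 3 in both groups and do not say whether same-numbered libraries belong together. Deviations of same-numbered libraries from their group means correlated at 0.00342, 0.0116 and -0.0932, so no shift shared by number was seen. These values cannot show how the libraries were handled. With the replicate block 39 of the 41 falls remained, 1 large subunit gene rose and Rpl11 passed (adjusted p = 0.0156).

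Limits: 3 libraries a group show only shifts larger than library spread. The scale of FPKM rests on mapped totals, and the part of AC166252.2 in those totals was not estimated. About 984 fragments or more stood behind each tested member in every library.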

Other observations

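Genes that rescue stalled ribosomes or destroy their products fell in 5 of 9 tested cases and rose in 1, where 36.7% of all tested rows fell and 28.5% rose. Under quantile normalization 3 fell and 2 rose. The list had a median log2 fold change of -0.24 on the deposited scale, -0.14 under median-ratio scaling and -0.08 under quantile normalization. Gtpbp2, a GTPase partner of the rescue factor Pelota, was the only one past 1.5-fold: it fell 3.19-fold, from 48.6 ± 2.45 to 15.2 ± 0.621 FPKM (limma adjusted p = 6.55e-06). Nemf and Ltn1, which tag stalled nascent chains, fell 1.41-fold and 1.29-fold, and Zfand2a rose 1.28-fold; these 3 were chosen after their values were seen. Of 9 snoRNA host genes, whose introns carry guides for ribosomal RNA modification and whose transcripts often begin with a TOP motif, 3 had rows. Of these 3, 1 fell (33.3%) and none rose: Snhg12 fell 2.16-fold, from 77.1 ± 6.03 to 35.7 ± 2.25 FPKM (limma adjusted p = 6.29e-05). Gas5 (0.26, limma adjusted p = 0.175) and Snhg3 (-0.15, limma adjusted p = 0.639) did not pass. Gas5 was called higher under quantile normalization (0.46, limma adjusted p = 0.0424).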
